A study of Arabidopsis with 8 samples.

Results

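The comparison described here is nNOS drought versus WT drought, the difference between nNOS transgenic and wild-type (WT) *Arabidopsis* leaves after both had been left without water. It rests on 4 of the 8 Affymetrix ATH1 arrays of the series, the 2 labelled nNOS-drought and the 2 labelled wild type-drought, and on all 22746 probe sets of the 22810 on the array that are not Affymetrix controls. A positive difference means a higher log2 signal in nNOS transgenic plants. Both genotypes are of the Columbia background, were 2 weeks old when water was withheld and were sampled as leaves of at least 20 seedlings per array. The labels give 14 d without water, whereas the methods of the study give a shorter time. The transgene encodes neuronal nitric oxide synthase under the 35S promoter, which is active in most tissues. The study pooled RNA of 2 transgenic lines for labelling, while the extraction label names only line 25, so the share of each line in a difference cannot be told apart here. Whether the 2 samples of a group were grown separately is not stated, and the p-values below therefore measure only the spread between samples of a group, which may be technical. That spread is pooled over all 4 groups of the series, the watered ones included. The remaining 4 arrays, nNOS control and WT control, come from plants that were kept watered.

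Neuronal nitric oxide synthase makes nitric oxide from arginine in animals, and higher plants have no close relative of it. Nitric oxide acts in plants mostly by modifying proteins and by its chemistry with reactive oxygen species, and mitochondria and plastids are both sources and targets of these molecules. A drying leaf typically makes dehydrins and related late embryogenesis abundant (LEA) proteins, which shield membranes and enzymes, responds to abscisic acid and jasmonate, and begins to age. The comparison asks how far the transgene shifted the leaf transcriptome once both genotypes were short of water.

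Nearly all differences between the genotypes under drought were small. The median size of the log2 fold change over the 22746 probe sets was 0.183, 90% lay below 0.452 and 99% below 0.741, against a median SD within a pair of arrays of 0.0829 in nNOS drought and 0.0599 in WT drought. With limma and a Benjamini-Hochberg adjusted p of at most 0.05, 2428 probe sets (10.7%) passed, 836 (3.68%) higher and 1592 (7%) lower in nNOS transgenic plants. Of these, 20 (0.0879%) also reached 2-fold, 4 higher (0.0176%) and 16 lower (0.0703%), and the other 2408 were shifts below 2-fold with a median size of 0.521. All 2428 had arrays that did not overlap between the genotypes, but so did 66.4% of all probe sets, so this separation by itself says little with 2 arrays per group. No passing shift was smaller than 0.337. The balance of the directions depended on the scaling. Below 2-fold, 832 probe sets were higher and 1576 lower as deposited but 2279 and 1024 after centring of each array on its median, and at 2-fold the 4 and 16 became 11 and 8 after quantile normalization, 15 and 8 after centring and 13 and 11 after cyclic loess. In whole leaves, fewer cells of a type and less RNA per cell cannot be told apart, which touches every difference below.

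The sign of the small shifts followed the signal. With the probe sets cut into 10 bins of equal number by signal, bin 3 (log2 signal 2.78 to 3.33) had a median log2 fold change of 0.167, and 78.8% of its probe sets were higher in nNOS transgenic plants. In bin 6 (5.01 to 5.81) the median was -0.109 and 36.4% were higher. The brightest bin had a median of 0.025. After cyclic loess normalization the medians of the bins lay between -0.05 and 0.07, and after centring of each array on its median they lay between -0.013 and 0.263. Because of this dependence, a gene is called stable to scaling below only if it passed in the same direction in the deposited values and after quantile normalization, centring and cyclic loess. That held for 591 of the 836 higher (2.6% of all) and 907 of the 1592 lower probe sets (3.99% of all), and for 19 of the 20 at 2-fold or more. Leaving out 1 drought array leaves 1 array in its group, and far fewer or no shifts below 2-fold then pass over the whole array. The loss of a shift in such a fit therefore cannot show how stable it is. With 2 arrays a group, the stability of the shifts below 2-fold to the loss of an array is not known.

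**Figure D1:**
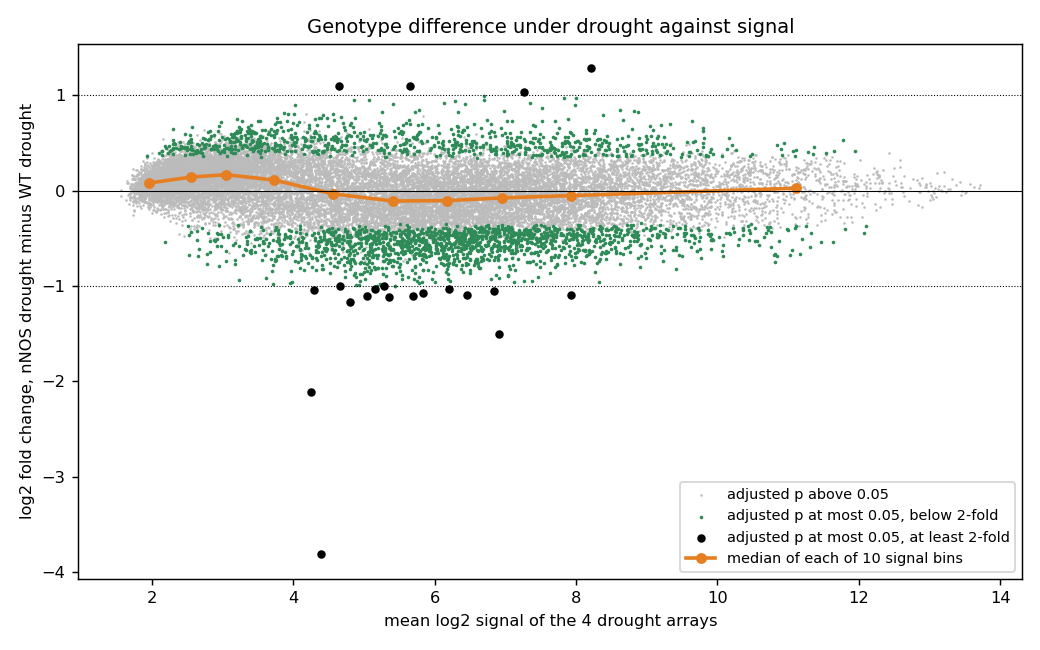
Each point is a probe set, with the mean log2 signal of the 4 drought arrays on the x axis and the log2 fold change of nNOS drought over WT drought on the y axis; dotted lines mark 2-fold. The line joins the medians of 10 bins of signal, which ran from 0.167 in bin 3 to -0.109 in bin 6.

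The largest difference was at AT3G55920. Its log2 signal was 2.31 and 2.65 on the nNOS drought arrays and 6.32 and 6.27 on the WT drought arrays, so its mean stood at percentile 11.8 of all probe sets in nNOS drought and at percentile 65.9 in WT drought. The log2 fold change was -3.81 (SE 0.16, 2 arrays a group, limma adjusted p = 2.63e-06). The nNOS signals lie near the lower end of their arrays, where 10% of probe sets read below 2.37 and 2.42, and without a detection call this size is only that of the measured signals. Probe set 249271_at, which has no gene name in the sources used, read 3.41 and 2.99 against 5.37 and 5.26, a log2 fold change of -2.11 (limma adjusted p = 0.00041). Probe set 259769_at, also unnamed, read 6.16 on both nNOS arrays against 7.64 and 7.69 in the WT (-1.50, limma adjusted p = 0.000809). These 3 were the only ones of the 20 that stayed past both thresholds whichever drought array was left out, and all 3 were lower in the watered nNOS transgenic plants too (-3.66, -2.00 and -0.86).

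The other 13 that were at least 2-fold lower lay between -1.001 and -1.17. LTI30, a dehydrin gene, was the brightest of them, at 7.32 and 7.46 in nNOS drought and 8.53 and 8.43 in WT drought (-1.09, SE 0.11, limma adjusted p = 0.00416). Of the same size were the differences of a pair of cytochrome P450 genes of the CYP71B family, oxidases of small molecules. CYP71B23 read 5.84 and 5.98 against 7.08 and 6.94 (-1.10, limma adjusted p = 0.00647). CYP71B34 read 4.60 and 4.37 against 5.65 and 5.54 (-1.10, limma adjusted p = 0.00693). Both genes were named for reaching 2-fold, so the gap between their genotypes is no further support. BGAL4, a beta-galactosidase gene, read 6.38 and 6.24 against 7.41 and 7.31, and AIG1, named for its induction by the bacterial protein AvrRpt2, read 5.46 and 5.15 against 6.48 and 6.27. Of the remaining members, AT3G50860, AT2G39920, AT3G26020 and AT3G62140 lay between -1.001 and -1.03, and 251887_at, 247867_at and 264908_at, which are unnamed, between -1.04 and -1.17. AT1G70200 (-1.11) was the only 1 of the 20 that was not stable to scaling, and its nNOS arrays, at 5.16 and 4.43, differed more from each other than those of any other of the 16.

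Among the 4 probe sets at least 2-fold higher, the brightest was psaC, the plastid gene for the iron-sulphur subunit of photosystem I. It read 8.78 and 8.91 in nNOS drought and 7.62 and 7.504 in WT drought (1.28, SE 0.26, 2 arrays a group, limma adjusted p = 0.0176). Its SE also reflects the nNOS control arrays, which read 8.065 and 9.066. AT5G09570 read 7.74 and 7.82 against 6.67 and 6.83 (1.03, limma adjusted p = 0.0067). AT4G27654, annotated as an unknown protein, read 6.47 and 5.93 against 5.101 and 5.109 (1.095, limma adjusted p = 0.0138), and the unnamed 255937_at read 5.49 and 4.902 against 4.09 and 4.11. In the last 2 the nNOS arrays lay apart from each other, while the WT arrays were almost equal. The fold threshold cut through a dense part of the distribution, since 45 more probe sets lay between 0.9 and 1 in size and all 45 passed the adjusted p.

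**Figure D2:**
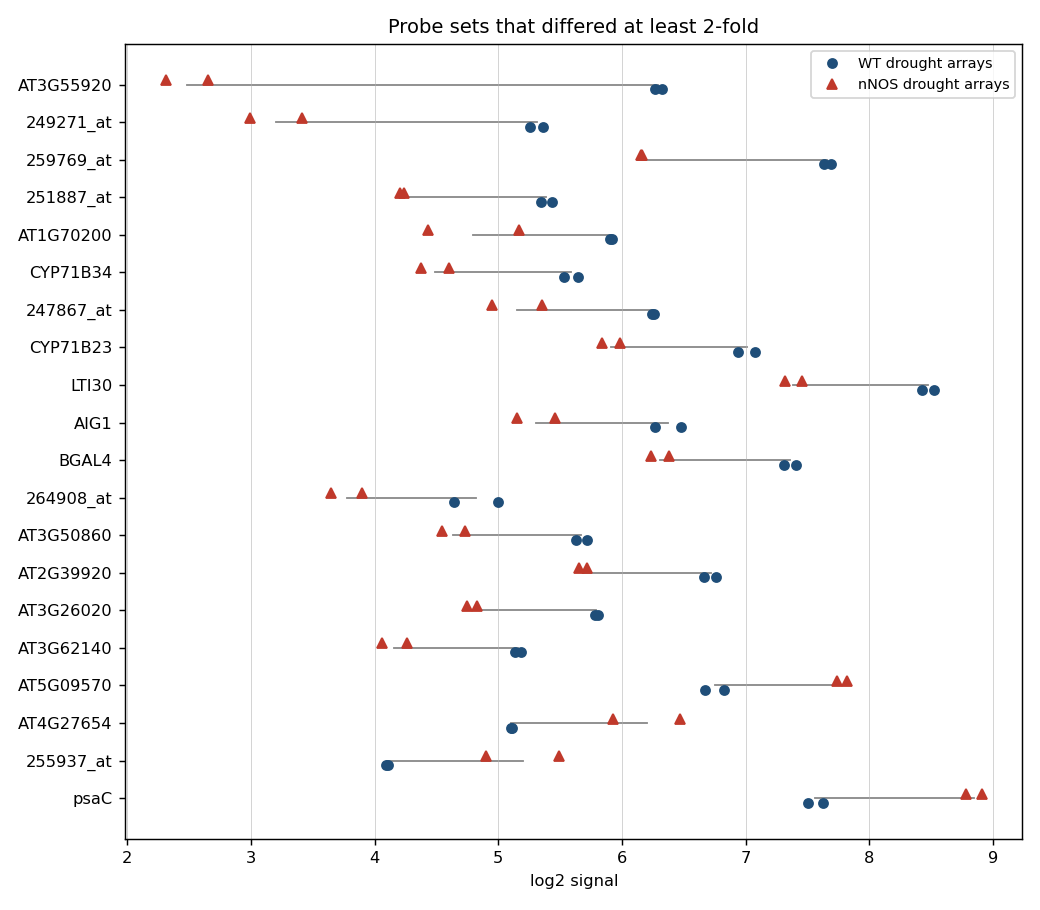
Log2 signal (x axis) of each of the 20 probe sets that differed at least 2-fold under drought, with 1 point per array and a line between the group means. AT3G55920 had the widest gap, at 2.31 and 2.65 in nNOS drought against 6.32 and 6.27 in WT drought.

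Below 2-fold, 619 probe sets with a gene name, a mean log2 signal of at least 6 in both genotypes and non-overlapping arrays passed the adjusted p, 205 higher and 414 lower. The 15 largest of the lower ones ran from -0.78 to -0.96 and the 15 largest of the higher ones from 0.73 to 0.99. SEN1, a gene that leaves switch on in darkness and senescence, led the lower ones at 7.94 and 7.74 against 8.88 and 8.72 (-0.96, SE 0.11, limma adjusted p = 0.00647). KELP, which encodes a transcriptional coactivator, read 6.53 and 6.76 against 7.59 and 7.60 (-0.95, limma adjusted p = 0.00647). PKS2, a phytochrome kinase substrate gene, followed at -0.85, and DELTA-OAT, whose product links ornithine to proline and glutamate metabolism, at -0.78. The others of these 15 were rpl22 and 10 genes known here only by locus, AT4G33540, AT5G47070, AT4G13360, AT2G23840, AT1G04350, AT4G39150, AT1G05430, AT2G40270, AT5G07860 and AT5G11910. Of the higher 15, AT5G05600 (0.97), AT2G04050 (0.95), AT2G41730 (0.84), AT5G56980 (0.84), RALFL32 (0.75), AT3G04230 (0.74) and AT5G20120 (0.73) belong to none of the groups below. The others are taken up by group.

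**Figure D3:**
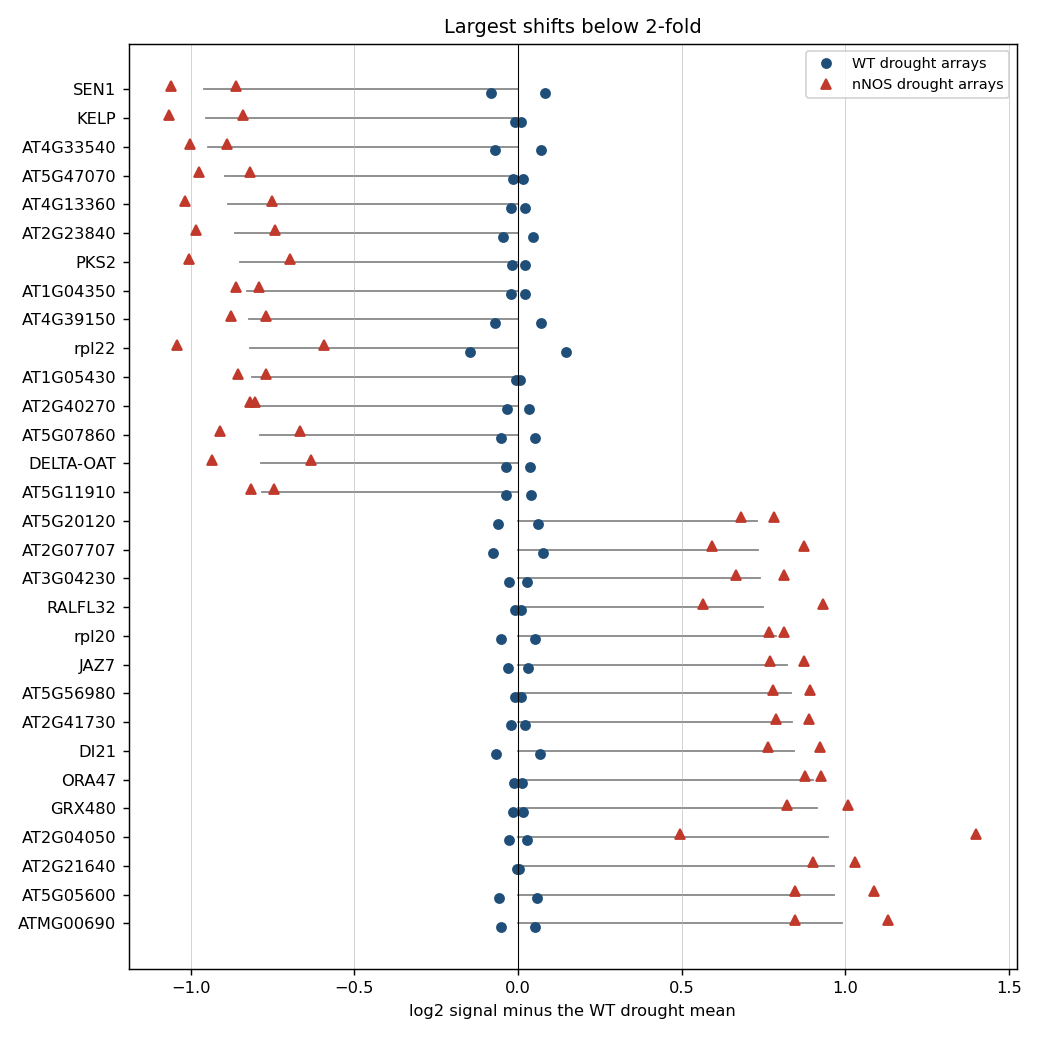
The 15 largest shifts below 2-fold in each direction among named genes with a mean log2 signal of at least 6. The x axis is the log2 signal of each drought array minus the mean of the WT drought arrays; in AT2G04050 the nNOS arrays lie far apart (7.63 and 6.72).

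Several genes of the mitochondrial genome were higher in nNOS transgenic plants under drought. Of 16 measured, 6 passed higher and 0 lower, against 3.68% and 7% of all probe sets, all 16 had positive log2 fold changes, against 55.4% of all probe sets, and their median was 0.31, against 0.04 over all probe sets. Of the 16, 7 lay in signal bins 1 to 4, where 63.3% to 82.1% of all probe sets were higher, and 14 were positive after quantile normalization and after cyclic loess, with nad9 and matR below 0. cox1, a core subunit of cytochrome oxidase, read 7.94 and 8.19 against 7.36 and 7.32 (0.73, SE 0.12, 2 arrays a group, limma adjusted p = 0.00958). nad4, of complex I, read 6.83 and 7.002 against 6.12 and 6.30 (0.70, limma adjusted p = 0.0141). In both genes the lower nNOS array was above the higher WT array by more than the arrays of a genotype differed. They are described as the largest passing shifts of the list, so this gap is no further support. nad1 (0.69), nad4L (0.58), cox2 (0.56) and orfX (0.49) also passed, nad4L alone among the 6 without stability to scaling. The array holds 7 probe sets for nad1, whose exons lie apart in the genome, and all 7 were positive (0.11 to 0.69), of which 2 passed. The lowest value of the 16 was 0.01. The median of the list was 0.30 after quantile normalization, 0.41 after centring and 0.32 after cyclic loess.

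More transcripts of this kind stood among the largest small shifts. ATMG00690, an open reading frame of the mitochondrial genome annotated as a hypothetical protein, was the largest of all below 2-fold among the bright named genes, at 7.06 and 7.34 against 6.16 and 6.27 (0.99, limma adjusted p = 0.00919). ATMG00670 (0.70) and ATMG00660 (0.66), named only from the gene table of the study, passed as well. AT2G07707 (0.73) and AT2G07695 (0.73) lie in the stretch of chromosome 2 that is a copy of the mitochondrial genome, and their probe sets are of the kind that matches more than 1 transcript, so nuclear and mitochondrial copies cannot be told apart. Without drought 14 of the 16 were positive, with nad7 at -0.11 and nad2 at -0.09 below 0 and nad4, the highest, at 1.45, and ATMG00690 was at 1.83. The added poly-A control RNAs averaged 8.98 and 9.40 on the nNOS control arrays against 6.88 on both WT control arrays. Organelle transcripts mostly lack long poly-A tails, and the labelling starts from such tails. The 25S ribosomal RNA control, which lacks them too, read 10.97 and 11.23 on the nNOS drought arrays against 10.60 and 10.74 (0.42, limma adjusted p = 0.0449). Under drought the poly-A control RNAs were higher by 0.50 on average over 24 probe sets (0.29 to 0.61), and 11 of the 24 passed higher. The part of these differences in the mitochondrial result was not tested.

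Of 4 nuclear genes tied to mitochondrial stress or import, 2 passed, against 10.7% of all probe sets. The 4 were picked after their values were seen, so this count says nothing about such genes as a group. AT2G21640, annotated as a marker of the oxidative stress response, read 8.55 and 8.42 against 7.52 on both WT arrays (0.97, SE 0.13, limma adjusted p = 0.00726). The alternative oxidase gene AOX1A read 8.86 and 8.98 against 8.73 on both (0.20, limma adjusted p = 0.233) and the NADH dehydrogenase gene NDB2 had a log2 fold change of 0.21 (limma adjusted p = 0.203), both short of the threshold. TOM22-I, for a receptor of mitochondrial protein import, was higher by 0.52 (limma adjusted p = 0.0484).

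Plastid-encoded genes passed in both directions. Of 69 measured, 7 passed higher and 3 lower, against 3.68% and 7% of all probe sets, with a median of 0.18. The 7 stayed 7 after quantile normalization and became 8 after cyclic loess and 18 after centring. They became 19 with only the drought arrays and 21 with trend and robust moderation or with array weights. Beside psaC, the higher ones were rpl20 (0.79), psbN (0.65), petN (0.62), ndhG (0.56), psbA (0.48) and petD (0.47). petD was dim, at 3.39 and 3.43 against 2.89 and 2.98, and not stable to scaling. psbA, which encodes the D1 protein of photosystem II and is among the most abundant leaf transcripts, read 11.01 and 11.15 against 10.56 and 10.63 (limma adjusted p = 0.0313). The lower ones were rpl22 (-0.82), atpA (-0.73) and rpl33 (-0.55), of which rpl33 was not stable to scaling. rpl22 and rpl20 both encode proteins of the large plastid ribosomal subunit, yet they stood at opposite ends, at 8.79 and 9.24 against 9.68 and 9.98 for rpl22 and at 8.81 and 8.76 against 8.05 and 7.94 for rpl20. Of the 15 photosystem II genes 14 were positive, with a median of 0.34. Of these 2 passed, with 2 after quantile normalization, 3 after cyclic loess, 7 after centring and 10 with trend and robust moderation. The largest value, that of psbT (0.78), missed the threshold (limma adjusted p = 0.0524). The 10 genes of the plastid NADH dehydrogenase split into 5 positive and 5 negative and had a median of -0.01. Of 11 photosynthesis genes of the nucleus none passed, against 3.68% higher and 7% lower of all probe sets, and they lay between -0.36 and 0.10. After cyclic loess, with only the drought arrays, with trend and robust moderation and with array weights, 1 of the 11 passed lower. With so few genes this is no contrast to the plastid genes. RCA (Rubisco activase) and LHCB4.1 (a light-harvesting protein), used here as mesophyll markers, were among the brightest probe sets at 13.1 and 13.2 in both genotypes.

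Several jasmonate-linked and redox genes, picked from the largest shifts, were higher in nNOS transgenic plants. GRX480, a glutaredoxin gene of salicylate and jasmonate crosstalk, read 7.89 and 7.71 against 6.90 and 6.87 (0.92, SE 0.12, 2 arrays a group, limma adjusted p = 0.00767). ORA47, an ERF transcription factor gene that can switch on jasmonate synthesis, read 8.41 and 8.46 against 7.52 and 7.54 (0.90, limma adjusted p = 0.00958). JAZ7, a jasmonate repressor gene, read 9.33 and 9.23 against 8.49 and 8.43 (0.82, limma adjusted p = 0.0067). In each of them the arrays of a genotype were close together and the genotypes well apart. CYP94C1, whose enzyme oxidizes the active jasmonate conjugate, was higher by 0.92 (6.57 and 6.61 against 5.66 and 5.68), and ERF2 (0.43) and ERF4 (0.54) passed too. Of the jasmonate list itself, whose 4 measured genes were OPCL1, JMT, THI2.1 and PDF1.2, none passed; THI2.1 was at 0.38 (limma adjusted p = 0.117) and PDF1.2 at -0.36 (limma adjusted p = 0.0802). GRX480, ORA47, JAZ7 and CYP94C1 stand outside that list.

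CSD2 and CSD1, genes of copper/zinc superoxide dismutases, were higher. CSD2, for the plastid enzyme, read 9.96 and 10.06 against 9.27 and 9.29 (0.73, SE 0.10, limma adjusted p = 0.00767). CSD1, for the cytosolic enzyme, read 10.37 and 10.51 against 9.86 and 9.91 (0.55, limma adjusted p = 0.0184). The iron enzyme gene FSD1 was at 0.21 (limma adjusted p = 0.232). None of the 5 measured genes of the antioxidant list, SAPX, TAPX, GR, GR1 and ATMDAR2, passed (-0.17 to 0.14), against 10.7% of all probe sets. Among 6 glutaredoxin and thioredoxin genes 1 passed higher and 3 lower, against 3.68% and 7% of all probe sets. The higher 1 was GRX480, and the lower 3 were GRXC2 (-0.57), GRXC1 (-0.48) and NTRC (-0.37). The 3 became 2 after quantile normalization and 1 after centring or cyclic loess, and GRXC1 and NTRC were not stable to scaling. GRXC2 was bright and tight, at 10.33 and 10.29 against 10.92 and 10.82.

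Several dehydration protection genes were lower in nNOS transgenic plants. Of 8 measured genes, 0 passed higher and 4 lower, against 3.68% and 7% of all probe sets, with a median of -0.20. LTI30, already described, was at -1.09. AT1G54410, the dehydrin HIRD11, read 10.62 and 10.77 against 11.43 and 11.32 (-0.68, SE 0.11, limma adjusted p = 0.00919). COR47, a further dehydrin gene, read 10.68 and 10.80 against 11.37 and 11.36 (-0.63, limma adjusted p = 0.0103). These 3 are all dehydrins and were stable to scaling. COR15B, for a chloroplast protein of the LEA type, was at -0.37 (limma adjusted p = 0.044) and was not, and its neighbour COR15A, at 12.49 and 12.39 against 12.45 and 12.47, was at -0.02 and did not pass. The LEA genes LEA4-5, AtLEA4-1 and LEA18 did not pass, with values up to 0.18.

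Other genes of the drought and abscisic acid response, most of them named only from the gene table that the study drew up from these arrays and so not counted, went both ways. GolS2, for the first enzyme of raffinose synthesis, was at -0.51, the transcription factor genes DREB2A at -0.44 and MYB96 at -0.86, and MBF1C at -0.40. MYB96 read 5.55 on both nNOS arrays against 6.53 and 6.29. On the other side, PYL5, for an abscisic acid receptor, read 7.96 and 8.01 against 7.44 and 7.42 (0.55, SE 0.11, limma adjusted p = 0.0166), and DI21, a drought-induced gene, read 8.96 and 9.12 against 8.13 and 8.27 (0.84, limma adjusted p = 0.00921). DREB2A, GolS2 and MBF1C were not stable to scaling, whereas MYB96, PYL5 and DI21 were. The cold response factor genes CBF1 (0.18, limma adjusted p = 0.311) and STZ (0.31, limma adjusted p = 0.0836) did not pass.

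Of the 4 measured genes of the list of leaf senescence and darkness, 1 passed lower (WRKY53) and 0 higher, against 7% and 3.68% of all probe sets. SAG29 was at 0.45, SAG101 at -0.33 and YLS5 at -0.03, all short of the threshold. Some other genes of senescence, darkness and defence, picked after their values were seen, were lower. SAG12, for a cysteine protease that marks leaf senescence, read 5.65 and 5.37 against 6.50 and 6.37 (-0.92, SE 0.15, 2 arrays a group, limma adjusted p = 0.0103). SEN1 (-0.96) and DIN11 (-0.63), both dark-inducible, lay in the same range. WRKY53, a regulator of senescence, read 5.93 and 6.35 against 6.84 and 6.86 (-0.72, limma adjusted p = 0.0194) and was the only 1 of 6 measured WRKY genes that passed. SARD1, a transcription factor gene for salicylate synthesis, was at 5.103 and 4.95 against 5.96 and 5.82 (-0.86, limma adjusted p = 0.00767). PBS3 (-0.65), of salicylate metabolism, FMO1 (-0.69), of systemic resistance, and the wall-associated kinase gene WAK1 (-0.68) were lower as well, as were CYP71A13 (-0.48) and PAD3 (-0.58), which act in camalexin synthesis. PBS3, FMO1 and PAD3 were not stable to scaling. AZI1, a defence priming gene, went the other way (0.55). None of the 3 genes of the salicylate and defence list that could be measured passed (-0.33 to 0.03), and the genes named here come in large part from the study's own table, which is not independent of these arrays.

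Of 7 measured sugar and starch genes 6 were negative and 1 positive (14.3%, against 55.4% of all probe sets). Their median was -0.34, against 0.04 over all probe sets. Only 1 passed lower and 0 higher, against 7% and 3.68% of all probe sets. This was APL3, for a subunit of the enzyme that commits glucose to starch (3.92 and 3.83 against 4.80 and 4.55, -0.80, limma adjusted p = 0.0181). Outside the list and so not counted, SEX4, for a phosphatase of starch breakdown, read 8.18 and 8.29 against 9.04 and 8.97 (-0.77, SE 0.11, limma adjusted p = 0.00767). LSF2, of the same phosphatase family and also outside the list, was at -0.49. CYP97A3, for a carotenoid hydroxylase, was at -0.73. EIN3, the central transcription factor gene of ethylene signalling, was tight within genotypes, at 7.85 and 7.84 against 8.49 and 8.53 (-0.67, limma adjusted p = 0.0111).

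Of the lists of glutathione transferase and cytochrome P450 genes, which act in detoxification and in the synthesis of defence compounds, the passing members were lower. Of 13 glutathione transferase genes, 5 passed lower and 0 higher, against 7% and 3.68% of all probe sets, with a median of -0.22. GSTL3 was the brightest, at 9.44 and 9.36 against 10.09 and 9.97 (-0.63, limma adjusted p = 0.0127), followed by GSTU27 (-0.49). GSTU26 (-0.67), GSTF4 (-0.50) and GSTU16 (-0.47) were dimmer, and GSTU16 was not stable to scaling. Of 23 cytochrome P450 genes, 4 passed lower and 0 higher, against the same 7% and 3.68%, with a median of -0.04. The 0 became 2 after centring and 3 with only the drought arrays or with array weights, and the P450 genes CYP94C1 (0.92) and CYP81F4 (0.58), which are outside the list, were higher. All 4 lower genes belong to the CYP71B family (CYP71B34, CYP71B23, CYP71B24 at -0.55 and CYP71B28 at -0.54), which supplies most of the P450 genes measured in the list. CYP71B24 was not stable to scaling. Family members are alike in sequence, so probe sets may share signal. Of the glycosyltransferase genes, 1 of 50 passed higher (UGT72E2, 0.72) and 2 lower (UGT76B1, -0.69, and UGT76E11, -0.59), below the 3.68% and 7% of all probe sets, with 5 higher after centring and 6 with array weights. UGT76E11 was not stable to scaling.

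Cell wall loosening genes were the nuclear list with most higher members. Of 28 measured, 6 passed higher and 1 lower, against 3.68% and 7% of all probe sets, and 21 were positive (75%, against 55.4%), with a median of 0.23. The beta-galactosidase gene BGAL4 (-1.05), named only from the gene table of the study, stands outside the list and is not counted. The median signal of the list was 4.25, and 13 of the 28 lay in signal bins 1 to 4, where most probe sets were higher. The 6 became 9 after centring and 3 with the replicate block. EXPB3 read 6.61 and 6.80 against 6.11 and 6.24 (0.53, SE 0.13, limma adjusted p = 0.0301) and EXPA4 read 7.46 and 7.50 against 7.07 and 7.12 (0.39, limma adjusted p = 0.0425). The other expansin genes that passed were EXPA18 (0.64), EXPB2 (0.62) and EXPB1 (0.42), with the xyloglucan enzyme gene XTH20 (0.39), while XTH19 was lower (-0.68). EXPA18 and XTH20 were not stable to scaling, and EXPA18 and EXPB2, at 3.04 to 4.24 on all 4 arrays, lie in the range of signal where most probe sets were higher in nNOS transgenic plants. XTH20 was dimmer still, at 2.72 and 2.76 against 2.41 and 2.295, and lies in that range too. Of 12 auxin-responsive genes 1 passed lower (IAA29, -0.68) and 0 higher, against 7% and 3.68% of all probe sets. Among the smaller lists, the heat shock factors and chaperones had 1 of 4 higher (Hsp70-2, 0.34) and 1 lower (BOB1, -0.52), and those of iron deficiency 1 of 3 lower (AT1G47400, -0.54, not stable to scaling). None passed of 6 histone and cell cycle genes, 4 of gibberellin, cytokinin and brassinosteroid, 4 of anthocyanin and flavonoid synthesis and 3 of glucosinolate and camalexin synthesis.

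**Figure D4:**
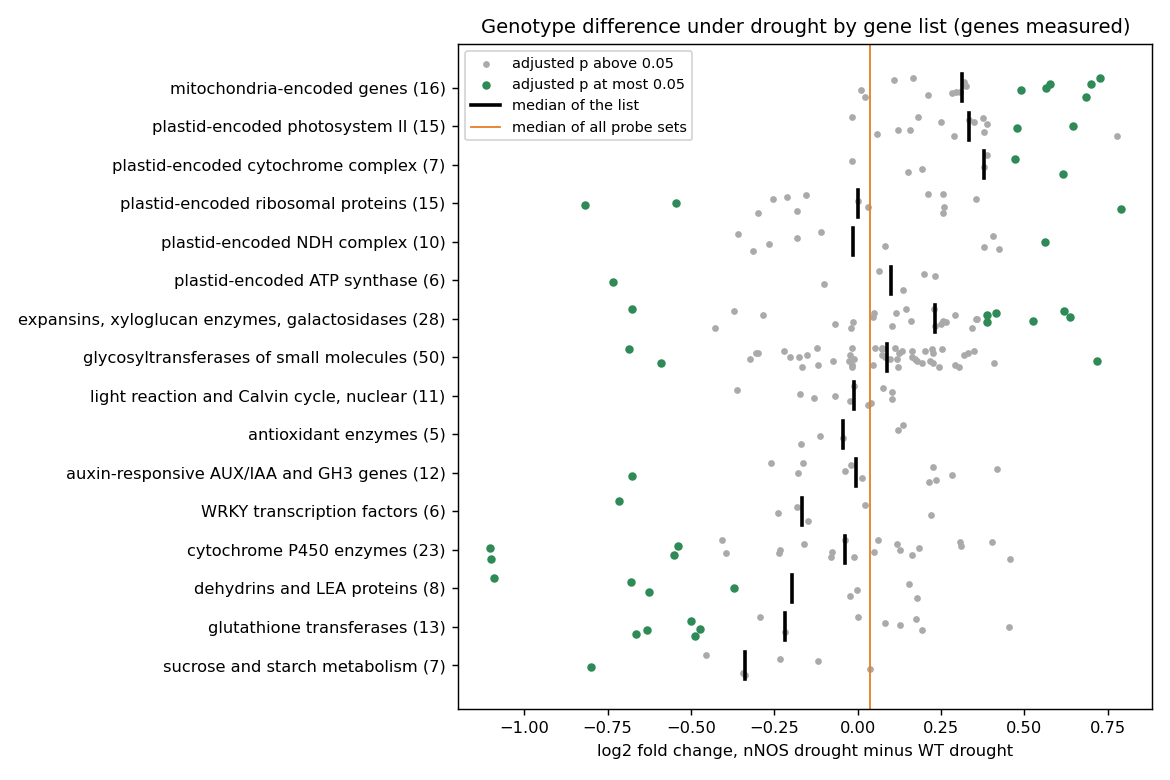
Log2 fold change of nNOS drought over WT drought (x axis) for each measured gene of 16 lists, with the number of genes in brackets; black bars are list medians and the vertical line is the median of all probe sets. All 16 mitochondria-encoded genes lie above 0, and the passing glutathione transferase, P450 and dehydrin genes of these lists lie below it.

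Of the genes that the study names in its text or its table of shared genes, 17 were measured and named by the platform annotation. Of these 17, 4 passed higher and 1 lower under drought, against 3.68% and 7% of all probe sets. Beside AT4G27654 these were AT1G15010 (6.51 and 6.29 against 5.65 and 5.77, 0.69, limma adjusted p = 0.0103), AT5G56100 (0.52), annotated as a glycine-rich protein or oleosin, and AT5G66590 (0.41). AT1G66850, of the lipid transfer protein family, was lower (4.39 and 4.47 against 5.11 and 5.21, -0.73, limma adjusted p = 0.00936). The zinc transporter gene ZIP9 was higher at a high level, 9.06 and 8.98 against 8.46 and 8.43 (0.57, limma adjusted p = 0.0206). The study chose the first 17 on these arrays, so their counts are no independent evidence. PYL5 and SAG12, described above, are in the same table of the study and passed. They stand outside the 17, since the lists hold only genes named by the platform annotation. AT1G66850 also stands in the list of anther and pollen markers, whose other 2 measured genes did not pass, and FMA, a guard cell marker, was lower (4.04 and 4.26 against 4.66 and 4.69, -0.52, limma adjusted p = 0.0256).

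The same genotype comparison without drought gave a different size or sign for some of these genes. The difference between the 2 genotype effects was tested in the limma fit as an interaction, which passed for 3.64% of all probe sets. AT5G09570 was 1.03 higher under drought and 0.15 higher without it (interaction adjusted p = 0.026), and JAZ7 0.82 and 0.03 (interaction adjusted p = 0.0173). CYP71B23 was at -1.10 and -0.10 (interaction adjusted p = 0.0116), BGAL4 at -1.05 and -0.14 and SEN1 at -0.96 and 0.12. In these genes the genotypes were apart under drought and close without it. AT2G21640 (0.97 and -0.55), CSD2 (0.73 and -0.55) and CSD1 (0.55 and -0.39) changed sign between the conditions. AT4G27654 (1.095 and 2.41), PYL5 (0.55 and 1.21) and AT1G66850 (-0.73 and -3.54) kept their sign and were smaller under drought. LTI30 (-1.09 and -0.74), AT1G54410 (-0.68 and -0.72), GRX480 (0.92 and 1.15) and ORA47 (0.90 and 0.87) did not pass the interaction test. The poly-A control RNAs averaged 8.98 and 9.40 on the nNOS control arrays, 6.88 on both WT control arrays, 6.50 and 6.65 on the nNOS drought arrays and 6.11 and 6.04 on the WT drought arrays, and their part in the interaction was not tested.

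**Figure D5:**
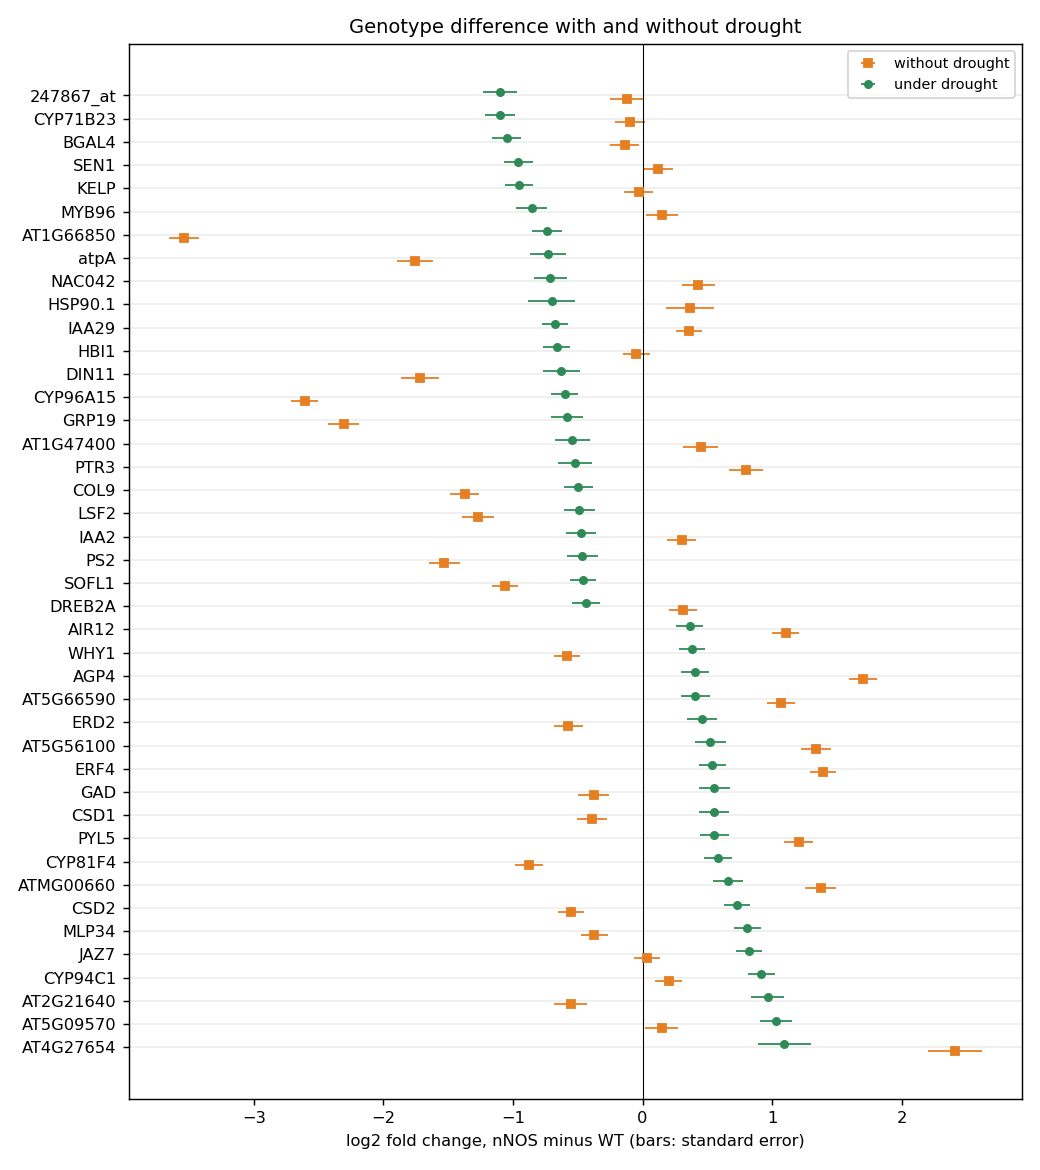
Log2 fold change of nNOS over WT (x axis) under drought and without it for the 42 named probe sets whose interaction passed, each with its standard error. AT2G21640, CSD1 and CSD2 lie on opposite sides of 0 in the 2 conditions, while AT4G27654 lies on the same side in both.

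Median log2 signals of the 4 drought arrays were 4.96 to 5.08. The hybridization controls, added after labelling, were higher by 0.25 on average on the nNOS drought arrays, and none of the 18 passed. Of the 24 poly-A control probe sets 11 passed higher. The mean of the 24 was 0.504. The passing shifts below 2-fold had a median of 0.492 where higher and -0.534 where lower, and 1576 of these 2408 were lower. The actin 5′ control passed higher too (0.505, limma adjusted p = 0.0223), while the actin 3′ control did not (-0.108). The part of these control differences in the small shifts was not tested. The 3′ minus 5′ difference of the GAPDH controls, a sign of RNA quality, overlapped between the genotypes (0.64 and 0.87 against 0.64 and 0.78), while that of actin was smaller on the nNOS arrays (3.07 and 2.91 against 3.63 and 3.58).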

How the data were processed

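Leaf RNA of 4 groups was measured on 8 Affymetrix ATH1 arrays, 2 per group. The authors took signals from the scans with Affymetrix software and computed fold changes with affylmGUI; the values they deposited are normalized log2 signals, and the normalization and the summarization of probes are not given in the sources used here. Normalization fixes which genes look unchanged, so small shifts depend on it.

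A limma model (limma 3.58.1, R 4.3.3) with 4 group means was fitted to the 8 arrays and moderated with eBayes. P-values were adjusted over 22810 probe sets, after which the 64 controls were left out. The threshold was an adjusted p of at most 0.05, and, for calls at 2-fold, a log2 fold change of 1 or more in either direction. Each SE and p-value uses 1 spread per probe set, pooled over the 4 groups of 2 arrays, so the control arrays also set it. The procedure was tested on simulated data. No background measure was used, so the dimmest signals have no detection call.

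Of the probe sets, 13513 had 1 gene in the platform annotation, 503 several, 245 a name only from the study's supplementary gene table and 8485 none. Lists used only the first kind, with the brightest probe set per gene, and are described where at least 3 genes were measured. Symbols that had matched an unrelated gene were taken out. Genes are named if they passed at 2-fold, were among the 15 largest shifts per direction below 2-fold, were among the largest or the first members of a list, or are named by the study; others were chosen after their values were seen, as were the names from the supplementary table. The members of the comparison and the lists were chosen with earlier results of these data known. The replicate numbers did not pair the arrays (correlations of deviations between groups -0.12 to 0.12). Alternatives were other normalizations, array subsets, weights, moderation, filters and thresholds, and each drought array left out. The fold changes and p-values published by the authors were not used. Their comparisons did bear on which genes are named, through the supplementary gene table and the table of shared genes.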

Additional observations from a re-analysis of the deposited data

Results flagged for a closer look

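For 42 named probe sets the genotype effect under drought differed from that without drought in the limma interaction test (adjusted p of at most 0.05). Values are the log2 fold change under drought minus that without. They share the nNOS control arrays, whose poly-A controls stood apart from those of the other arrays, and the part of this in the values was not tested.

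Effects that were more negative under drought included 247867_at (-0.979), CYP71B23 (-1.001), BGAL4 (-0.91), SEN1 (-1.083), KELP (-0.924) and MYB96 (-1.005), all lower under drought and close to level without it. HBI1, a growth-promoting transcription factor gene, was at -0.615. IAA29 (-1.035) and IAA2 (-0.778), auxin-responsive genes, AT1G47400 (-0.993), NAC042 (-1.143), the chaperone gene HSP90.1 (-1.07), the peptide transporter gene PTR3 (-1.319) and DREB2A (-0.748) were lower under drought with a positive value without it.

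Genes higher in both conditions, and less so under drought, were AT4G27654 (-1.316), AT5G56100 (-0.817), AT5G66590 (-0.66), AIR12 (-0.741), the arabinogalactan protein gene AGP4 (-1.296), ERF4 (-0.854), PYL5 (-0.651) and ATMG00660 (-0.714). Genes lower in both, and less so under drought, were AT1G66850 (2.803), CYP96A15 (2.008), whose enzyme makes wax alcohols and ketones, the pollen coat gene GRP19 (1.726), DIN11 (1.09), PS2 (1.066), atpA (1.023), COL9 (0.879), LSF2 (0.78) and SOFL1 (0.602).

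Genes higher under drought and lower without it were AT2G21640 (1.52), CYP81F4 (1.456), a P450 gene of indole glucosinolate synthesis, CSD2 (1.28), MLP34 (1.181), ERD2 (1.031), WHY1 (0.969), CSD1 (0.941) and GAD (0.93), the glutamate decarboxylase gene. AT5G09570 (0.882), JAZ7 (0.787) and CYP94C1 (0.717) were higher under drought and close to level without it.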

How the results depend on the processing

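Counts of probe sets are given as higher and lower in nNOS drought. At 2-fold, the 4 and 16 became 11 and 8 after quantile normalization, 15 and 8 after centring, 13 and 11 after cyclic loess, 2 and 13 with the adjusted p lowered to 0.01, and 185 and 601 at 1.5-fold. Leaving out 1 drought array gave 0 to 6 higher and 3 to 42 lower. Below 2-fold, the 832 and 1576 became 827 and 1121 after quantile normalization, 2279 and 1024 after centring, 924 and 1220 after cyclic loess, 1920 and 2658 with only the drought arrays, 1363 and 2225 with trend and robust moderation, 2411 and 3000 with array weights, 36 and 141 at 0.01, and 587 and 892 where all 4 scalings were asked for, a choice made after seeing the data. Leaving out 1 drought array gave 0 to 116 and 0 to 211, with an arm of 1 array assumed to vary like the others. At 2-fold the scalings moved the split between higher and lower past even, and below 2-fold centring did so; centring moved the median of all probe sets by 0.096. With the replicate number as a block, which pairs nothing here, the counts were 4 and 16 at 2-fold and 778 and 1435 below it.

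Of 154 named probe sets that passed, 137 still passed after quantile normalization, 139 after centring and 141 after cyclic loess. None turned direction under any alternative run, which says little. The arrays of passing probe sets did not overlap between the genotypes, so leaving out an array could not turn a sign. Values near 0 did turn sign: LHCB4.1 was 0.085 after centring and ranged from -0.024 to 0.002 with 1 array left out, RCA was -0.08 after cyclic loess, and COR15A was 0.073 after centring and ranged from -0.072 to 0.025 with 1 array left out.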
